A study of Mus musculus with 3 samples.

Results

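The 10 genes described are the killing machinery and the defining receptors of natural killer (NK) cells, as read in whole spleen RNA. They were chosen by name, and every non-control probe on the array that carries one of those names was used. The array held 14 such probes among 55679, for 10 of 34796 gene names, and all 14 were well above background on all 3 arrays. Gzma, Gzmb and Gzmk encode granzymes, Prf1 encodes perforin, Nkg7 encodes a granule membrane protein, Klrd1, Ncr1, Klrk1 and Klrb1c encode NK cell receptors, and Eomes encodes a transcription factor.

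All samples were spleens of male C57BL/6J mice made diabetic with streptozotocin, a toxin of the insulin-producing beta cells, and given islets of the same strain. The protocol gives every recipient 25 islets in the spleen and 100 islets beneath the kidney capsule. Sample 1 was taken just after transplantation (day 0), Sample 2 on day 2, and Sample 3 on day 139 from mice that had lost the graft-bearing kidney by nephrectomy on day 100. The sample characteristics name the capsular graft for Sample 3 only. Each sample was 1 array, all 3 arrays lay on 1 slide, and how many mice went into each is not given in the sources used here. The methods give an age range for the mice of the whole study and none for each array. No spleen without islets was among the samples, so time, the graft, the nephrectomy and any change in blood glucose cannot be told apart. Time here takes in the age of the mice and the time since streptozotocin. The methods give no blood glucose for each array. There were no replicates, so no difference below was tested and the errors given are those of the scanner software alone.

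NK cells and cytotoxic T cells kill by releasing granules onto a target cell. Perforin forms pores in the target membrane, and granzymes are serine proteases that enter and cleave proteins inside. NK cells carry activating and inhibitory receptors that decide on release, and both NK cells and cytotoxic T cells of the spleen express most of the granule genes. In bulk RNA, fewer cells of a type and less RNA per cell cannot be told apart.

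Signals are Agilent background-subtracted intensities after quantile normalization, in arbitrary units, and a log2 ratio is the difference of the log2 signals of 2 samples. The arrays found 54.4%, 53.8% and 50.4% of probes well above background for Samples 1, 2 and 3, and no gene spot was saturated. Sample 1 stood apart in some neutrophil transcripts. Of 10 neutrophil markers 4 were past the limits explained next, downward, in both later samples against Sample 1, with log2 ratios on day 2 and day 139 of -4.44 and -4.49 for Mmp8 (a collagenase), -2.58 and -3.64 for Retnlg, -2.22 and -1.80 for S100a8, and -1.52 and -1.33 for S100a9 (both subunits of calprotectin). Across the 10 markers, 5 were higher and 5 lower on day 2 than in Sample 1, and 6 higher and 4 lower on day 139. Every comparison with Sample 1 holds the difference in the 4 named markers, and its part in the member signals was not tested. Sample 3 over Sample 2 leaves Sample 1 out, and none of the 10 passed both of those limits there. In it 1 marker passed the ratio limit downward (-1.07) and 1 upward (0.60). The study's rule was used to sort the ratios. A gene passed the ratio limit at a ratio of at least 1.5 or at most 0.66, and it passed both limits when its Z-score was also at least 2 or at most -2. The Z-score sets each log2 ratio against the spread (SD) of this ratio among the 1000 detected probes closest to it in mean signal. Where a gene had 2 probes, the one with the higher mean signal stood for the gene.

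**Figure D1:**
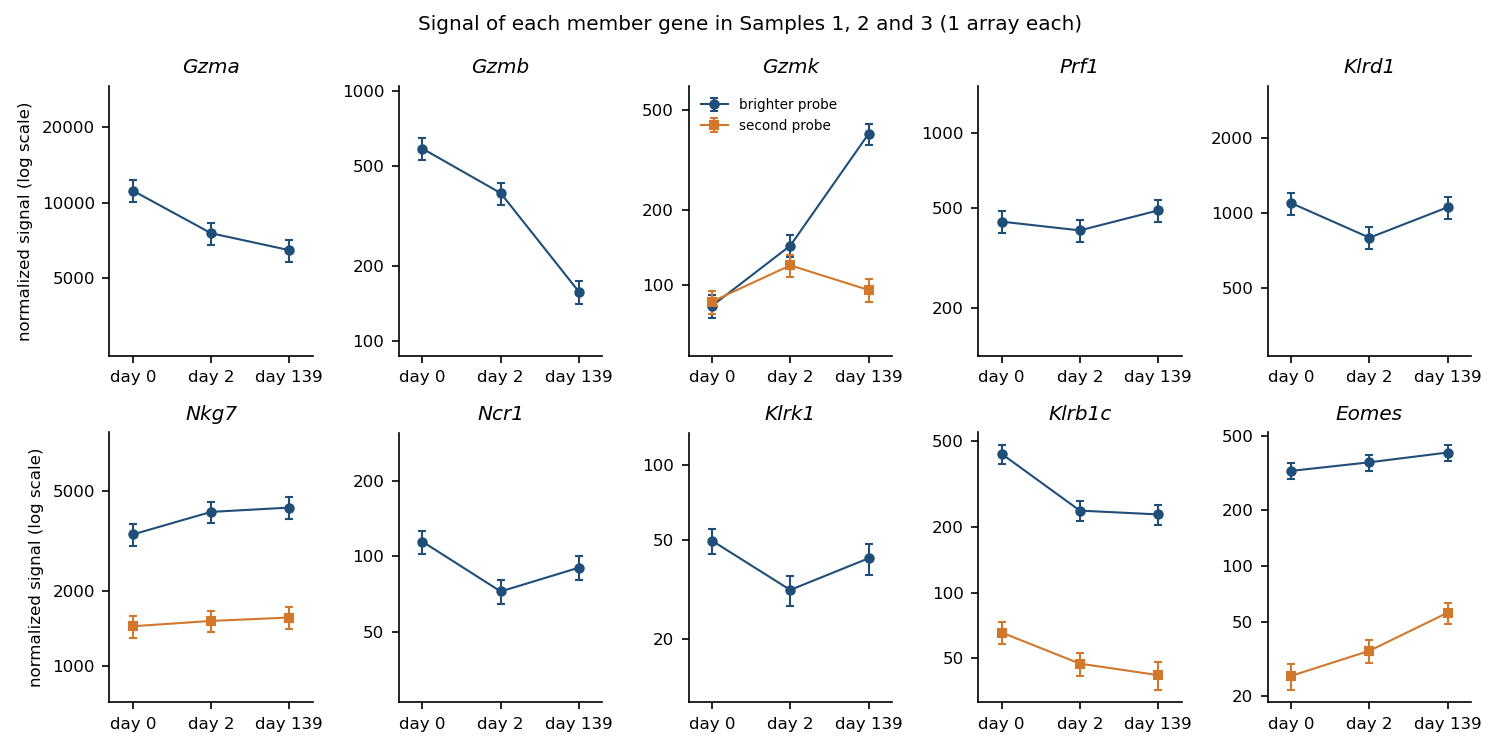
Normalized signal of the 14 member probes (vertical log axis, arbitrary units) in Sample 1 (day 0), Sample 2 (day 2) and Sample 3 (day 139), 1 array each, in 1 panel per gene, with the scanner error as bars. Gzmb ran from 587 down to 157 while 1 of the Gzmk probes ran from 82.5 up to 401.

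The granzymes did not move together. Gzmb, which encodes a protease that cuts after aspartate and activates caspases, gave signals of 587, 389.6 and 157 in Samples 1, 2 and 3. It was highest on day 0 and lowest on day 139, and the Sample 3 signal was 3.74 times below that of Sample 1. The log2 ratio was -1.90 ± 0.21 (scanner error) with a Z-score of -2.94, past both limits. Against Sample 2 it was -1.31 ± 0.21 with a Z-score of -1.97, past the ratio limit only. By day 2 it was -0.59 ± 0.20, a ratio of 0.664 that lies just outside the ratio limit.

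Gzma, which encodes a trypsin-like granzyme, gave 11179.9, 7553 and 6461. The order over the samples was that of Gzmb with a smaller spread. Its log2 ratio was -0.57 ± 0.20 for Sample 2 over Sample 1 and -0.79 ± 0.20 for Sample 3 over Sample 1, and only the second passed the ratio limit. Samples 2 and 3 were close, at -0.23 ± 0.20.

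Gzmk, which encodes another trypsin-like granzyme, ran the other way at 1 of its 2 probes. This probe, designed on an Ensembl transcript, gave 82.5, 143 and 401. The order was the reverse of that of Gzma and Gzmb, with the highest signal on day 139. The log2 ratio was 0.80 ± 0.22 for Sample 2 over Sample 1 (past the ratio limit), 2.28 ± 0.21 for Sample 3 over Sample 1 (Z-score 3.49, past both limits) and 1.48 ± 0.21 for Sample 3 over Sample 2 (Z-score 2.20, past both limits). Its ratio of 4.87 on day 139 over day 0 was the largest of any member in any comparison.

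The second Gzmk probe, designed on the RefSeq transcript, gave 85.8, 119.7 and 95.4. It was highest on day 2, passed no limit in any comparison, and its log2 ratio for Sample 3 over Sample 1 was 0.15 ± 0.22. The signal of the first probe over that of the second was 0.962, 1.20 and 4.21 on days 0, 2 and 139. The log2 ratios of the probes thus differed by 2.13 ± 0.31 for Sample 3 over Sample 1 and by 1.81 ± 0.30 for Sample 3 over Sample 2. Of 5119 genes with at least 2 probes well above background on all arrays, 31 (0.606%) had probes that differed as much for Sample 3 over Sample 1 and 46 (0.899%) for Sample 3 over Sample 2. The median gene differed by 0.22 and 0.24 in these comparisons. The direction of Gzmk on day 139 therefore depended on which probe was read, and against Sample 2 the second probe turned the sign, at -0.33 ± 0.22.

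Both probes lie on the minus strand of chromosome 13 in the mm9 design, at 113961816 to 113961875 for the first and 113970774 to 113971087 for the second. Their starts are 8958 bases apart. The second probe has 60 bases but spans 314 bases of the genome, so it crosses a splice junction. The sequences are shown because the Gzmk result turns on which was read, the first as its bases 4 to 33 with the hexamer AATAAA, the usual polyadenylation signal of messenger RNA, in capitals:
Gzmk, first probe: tcatcctaAATAAAatgtggacgtctgtgt
Gzmk, second probe: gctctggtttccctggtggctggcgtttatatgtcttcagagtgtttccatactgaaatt
The hexamer was in 3 of the 14 member probes (Gzma, the first Gzmk probe and the dimmer Eomes probe) and in 10.1% of all probes. The hexamer in a probe is a match of letters and shows no site in use. No annotation of the mm9 build was at hand, so the exon each probe lies in is not given.

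Gzma and Gzmk are neighbours on chromosome 13, and Gzmb lies on chromosome 14 (its probe at 56877916 to 56877975, minus strand, mm9, and that of Gzma at 113884035 to 113884094). The 250 bases before the start of each gene (RefSeq, GRCm38.p6, all read 5′ to 3′ on the minus strand) are shown because these 3 related proteases differed most in their course. Capitals mark matches, on either strand, to the RUNX motif TGTGGT, the AP-1 motif TGANTCA and GGTGTGA, the core of the T-box motif that Eomes and related factors bind.
Gzmb, chr14:56262335-56262584: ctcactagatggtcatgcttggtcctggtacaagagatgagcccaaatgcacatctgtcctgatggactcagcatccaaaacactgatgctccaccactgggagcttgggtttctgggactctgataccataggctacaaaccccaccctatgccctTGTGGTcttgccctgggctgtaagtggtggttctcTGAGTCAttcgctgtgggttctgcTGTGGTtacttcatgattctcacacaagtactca
Gzma, chr13:113100982-113101231: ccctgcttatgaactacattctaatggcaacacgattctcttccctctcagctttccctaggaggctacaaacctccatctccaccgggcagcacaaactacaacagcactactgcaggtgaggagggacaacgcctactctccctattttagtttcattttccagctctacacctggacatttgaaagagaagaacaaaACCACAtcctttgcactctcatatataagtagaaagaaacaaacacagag
Gzmk, chr13:113180966-113181215: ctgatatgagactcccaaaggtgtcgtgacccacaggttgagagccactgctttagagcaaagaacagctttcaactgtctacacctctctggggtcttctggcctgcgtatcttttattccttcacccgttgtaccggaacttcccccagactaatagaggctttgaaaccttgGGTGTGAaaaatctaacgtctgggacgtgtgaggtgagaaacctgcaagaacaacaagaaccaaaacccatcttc

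Promoter windows of 300 bases, which also take in the first bases past the start, were found for 9 of the 10 genes, with none for Klrd1. The RUNX letters were in windows of 7 of the 9 (Gzma, Gzmb, Prf1, Nkg7, Ncr1, Klrk1 and Klrb1c), beside 16.8% of all 32851 windows searched on both strands. The AP-1 letters were in those of Gzmb and Klrk1 (7.81% of all windows), the ETS letters AGGAAGT in that of Prf1 (9.35%), and the T-box core in those of Gzmk and Nkg7 (3.98%), of which Nkg7 also holds the longer AGGTGTGA (1.28%), which contains the core. These are matches of letters, and no binding was measured here.

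Perforin and the granule membrane protein moved little. Prf1 (chr10:60766941-60767000, plus strand, mm9), the pore-forming protein, gave 443, 409 and 491. Its 3 log2 ratios ran from -0.12 to 0.27 and none passed a limit. Nkg7, which encodes a granule membrane protein that takes part in granule release, gave 3359.9, 4135 and 4302 at 1 probe and 1443, 1515 and 1564 at the other. Both probes placed Sample 1 lowest and Sample 3 highest, with log2 ratios for Sample 3 over Sample 1 of 0.36 ± 0.20 and 0.12 ± 0.20, short of the ratio limit.

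All 4 receptor genes were lower on day 2 than on day 0. Klrb1c, which encodes NK1.1, the antigen that marks NK cells of this strain, gave 434, 238 and 229. It was lower in both later samples by nearly the same amount, with log2 ratios of -0.87 ± 0.21 and -0.92 ± 0.21 against Sample 1, both past the ratio limit. Its second probe gave 65.8, 47.4 and 41.9, in the same order, with log2 ratios of -0.47 ± 0.24 and -0.65 ± 0.27. Klrb1c belongs to a family of near-identical genes, so its probes may also bind transcripts of its relatives.

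Ncr1, which encodes the activating receptor NKp46, gave 114, 72.3 and 90.0. Sample 2 was lowest and Sample 3 lay between the other 2. The log2 ratio for Sample 2 over Sample 1 was -0.66 ± 0.22, past the ratio limit. Klrk1, which encodes the activating receptor NKG2D, had the same order at 49.6, 31.5 and 42.2, with a log2 ratio of -0.65 ± 0.26 on day 2. Its signal was the nearest to background of the 10 genes, set against lowest well-above-background signals of 12.9 to 18.2 on the 3 arrays. Klrd1, which encodes CD94, the partner chain of the NKG2 receptors for the class I-like molecule Qa-1, gave 1096, 797 and 1056. Its day 2 log2 ratio of -0.46 ± 0.20 did not pass the ratio limit, and Samples 1 and 3 differed by less than the scanner error. Klrd1, Klrk1 and Klrb1c all lie on chromosome 6, where mouse NK receptor genes are clustered.

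Eomes, which encodes a T-box factor needed for mature NK cells and also made by memory CD8 T cells, gave 325, 361 and 407 at its brighter probe and 25.7, 35.1 and 56.2 at the dimmer one. Both probes placed Sample 3 highest and Sample 1 lowest. The log2 ratio for Sample 3 over Sample 1 was 0.33 ± 0.20 at the brighter probe and 1.13 ± 0.30 at the dimmer, of which only the second passed the ratio limit. The probes differed by 0.80 on the log2 scale, and 7.03% of genes with 2 or more probes differed as much.

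**Figure D2:**
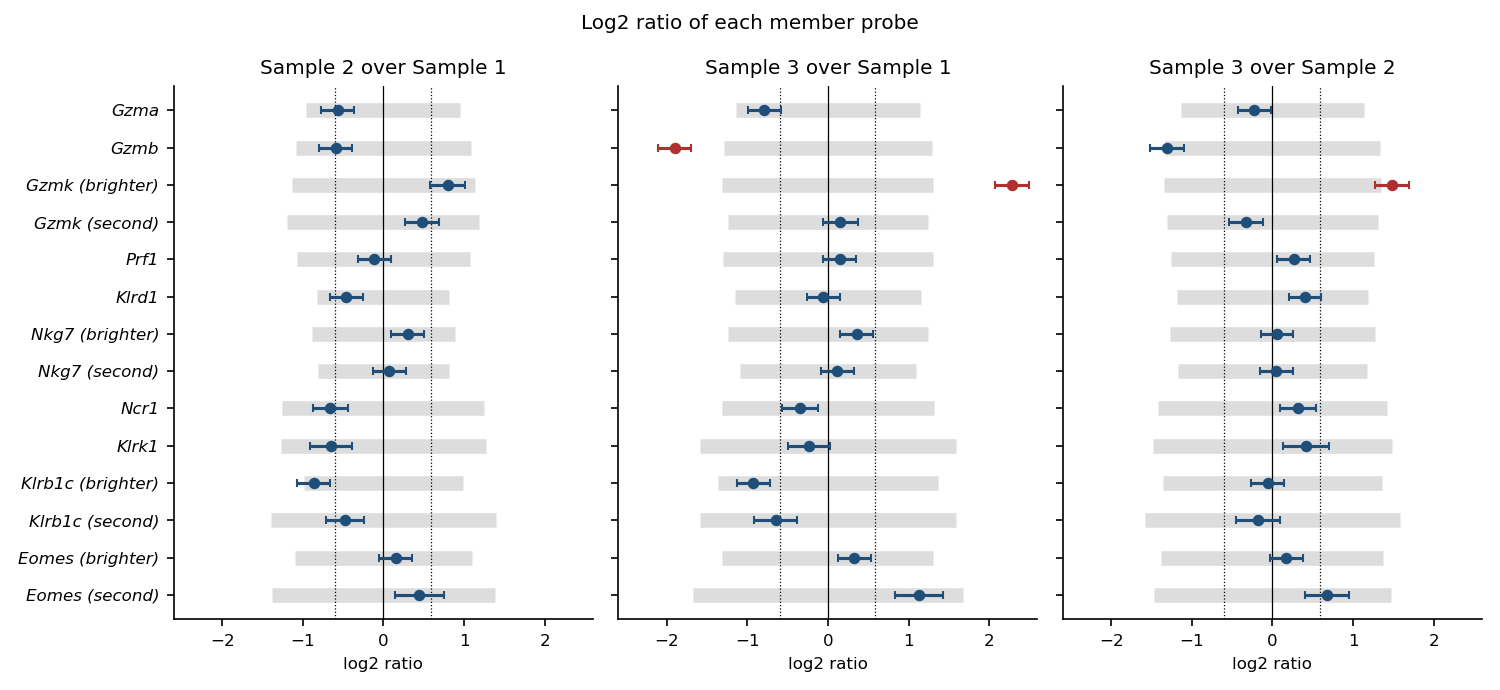
Log2 ratio of each member probe (horizontal axis) in the 3 comparisons, with the scanner error as bars, grey bands of 2 SD of probes of like signal, and dotted lines at the ratio limits of 1.5 and 0.66. Red points passed both limits: Gzmb (-1.90) and Gzmk (2.28) for Sample 3 over Sample 1, and Gzmk (1.48) for Sample 3 over Sample 2.

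Counted by gene, day 2 against day 0 gave 3 higher and 7 lower signals with a median log2 ratio of -0.51, beside 0.02 over all 22851 detected genes. The ratio limit was passed upward by 1 gene (Gzmk) and downward by 3 (Ncr1, Klrk1 and Klrb1c), against 9.94% and 9.87% of all detected genes. None of the 10 passed both limits, which 2.20% of genes did upward and 2.88% downward. The differences exceeded the scanner error, which was 0.20 to 0.26, for 8 of the 10 genes, and the 2 within it were Prf1 and Eomes. The share of all detected genes that exceeded their scanner error was not counted, so the 8 do not set the members apart.

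On day 139 against day 0 the members spread to both sides. The median log2 ratio was -0.14, with 4 higher and 6 lower, beside -0.00 over all detected genes. The ratio limit was passed upward by Gzmk and downward by Gzma, Gzmb and Klrb1c, against 13.6% and 13.7% of genes. Both limits were passed by Gzmk upward and by Gzmb downward, against 3.00% and 2.45% of genes. The Gzmk probe used was picked on its mean signal over all 3 samples, day 139 included. The second Gzmk probe, at 0.15, passed no limit. The range from -1.90 to 2.28 was set by Gzmb and the first Gzmk probe, and the other 8 genes lay between -0.92 and 0.36.

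On day 139 against day 2, 7 members were higher and 3 lower, with a median of 0.22 beside -0.03 over all detected genes. The ratio limit was passed only by Gzmk upward and Gzmb downward (12.8% and 13.5% of genes). Both limits were passed upward by Gzmk alone, against 2.80% of genes, and downward by none, against 1.96%. The second Gzmk probe, at -0.33 here, passed neither limit. This comparison shares Sample 3 with the one before it, as that one shares Sample 1 with the first. The 3 samples placed the 10 genes in 4 orders. From high to low, the order was Samples 1, 2, 3 for Gzma, Gzmb and Klrb1c, an order seen in 17.8% of detected genes, and Samples 3, 2, 1 for Gzmk, Nkg7 and Eomes (18.2%). Klrd1, Ncr1 and Klrk1 were highest in Sample 1 and lowest in Sample 2 (12.6%), and Prf1 was highest in Sample 3 and lowest in Sample 2 (16.7%). Several of these orders rest on differences within the scanner error. For Sample 3 over Sample 2 these were Klrb1c, Nkg7 and Eomes, and for Sample 3 over Sample 1 Prf1, Klrd1 and Klrk1. For Sample 2 over Sample 1 they were Prf1 and Eomes. The second probe of Gzmk gave another order.

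The scale of Sample 3 bears on these signs. The labelling spike-ins, RNAs of viral E1A sequence added in fixed amounts, had median signals of 3718, 3953 and 2448 on the arrays of Samples 1, 2 and 3 before they were normalized. Scaling to them in place of quantile normalization moved the median of all detected genes from -0.00 to 0.37 for Sample 3 over Sample 1 and from -0.03 to 0.39 for Sample 3 over Sample 2. On that scale Klrd1 (0.34), Ncr1 (0.02) and Klrk1 (0.09) changed sign for Sample 3 over Sample 1, and Gzma (0.08) and Klrb1c (0.37) for Sample 3 over Sample 2. Gzmb stayed at -1.54 and Gzmk, read at its first probe, at 2.65 for Sample 3 over Sample 1. The ratio limit in that comparison was then passed upward by 3 genes, Gzmk, Nkg7 (0.73) and Eomes (0.71), and downward by Gzmb alone, since Gzma (-0.44) and Klrb1c (-0.55) no longer passed it. For Sample 2 over Sample 1 all 10 genes kept their sign under each of the 4 scalings tried, though normexp brought Klrk1 to -0.31, Ncr1 to -0.37 and Gzmk to 0.51. For Sample 3 over Sample 2, Nkg7 turned to -0.01 under 75th percentile scaling and Klrb1c to 0.10 under normexp.

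**Figure D3:**
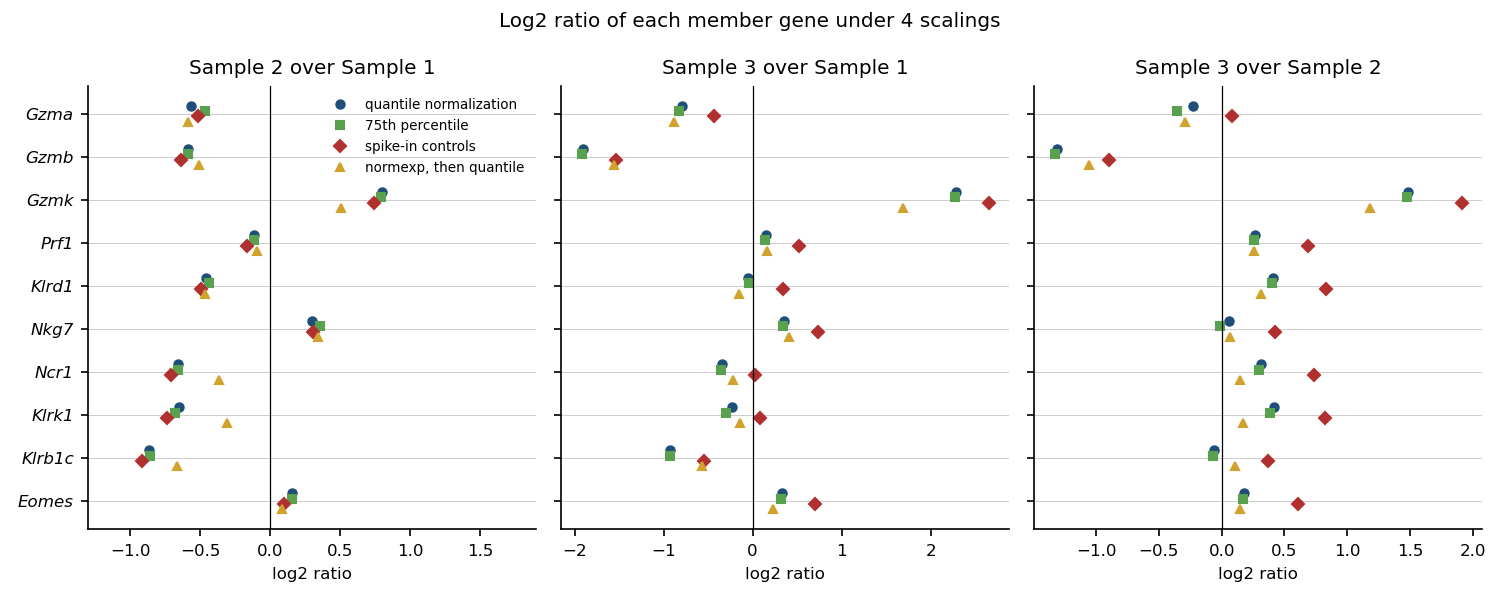
Log2 ratio of each member gene under quantile normalization, 75th percentile scaling, spike-in scaling and normexp background correction, in the 3 comparisons. For Sample 2 over Sample 1 all scalings give each gene the same sign, with Klrk1 between -0.74 (spike-in) and -0.31 (normexp), while spike-in scaling lies to the right of quantile normalization in both comparisons with Sample 3.

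The other NK receptors covered 27 listed genes, of which 24 were detected and 2 of these (Klra17 and Cd160) were not well above background on 1 array. On day 2 against day 0, 19 of the 24 were lower and 5 higher, with a median of -0.25 against -0.66 for the 4 member receptors. The ratio limit was passed downward by 8 and upward by none, but downward by only 2 under normexp. The median stayed negative under the other 3 scalings, at -0.28 to -0.20. Cd244, which encodes the receptor 2B4, was the one past both limits, with signals of 3593, 1809.8 and 2177 and a log2 ratio of -0.99 on day 2. On day 139 against day 0, 17 were lower and 7 higher with a median of -0.38, which spike-in scaling moved to 0.00 with 12 on each side. The median of the 4 member receptors was -0.29 there and 0.05 with spike-in scaling. Many of the listed Klra genes encode the Ly49 receptors and are near copies of each other, so their probes may read more than 1 of them.

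Genes that load, process and hold back the granules did not shift as a group. The medians of 11 detected genes were 0.13, 0.09 and 0.02 for Sample 2 over Sample 1, Sample 3 over Sample 1 and Sample 3 over Sample 2. Srgn, which encodes the proteoglycan serglycin that packs granzymes and is also abundant in myeloid cells, gave 18481.9, 9292 and 10776, a log2 ratio of -0.99 on day 2 that passed both limits. Cst7, which encodes the protease inhibitor cystatin F, gave 502, 418 and 954, higher on day 139 than on day 2 by 1.19 on the log2 scale and past both limits. Of 7 other granzymes 2 were detected, and Gzmm gave 271, 417 and 243.

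Among 8 death ligands and effector cytokines, 6 were lower on day 2 than on day 0 and 2 passed both limits, both downward. Ccl3 gave 621, 191 and 195 and Ccl4 gave 1219.9, 617 and 746. Both encode chemokines that NK cells and also macrophages make, and their day 2 log2 ratios were -1.70 and -0.98. Fasl, the death ligand of the same cells, gave 176, 117 and 104, and Ifng gave 148, 119 and 207. Neither passed both limits, and both were named after their values were seen. On day 139, 5 of the 8 genes of this list were higher than on day 0 (median 0.26). Against day 2, 7 of the 8 were higher (median 0.35).

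The adaptors through which the receptors signal were steady on day 2, with a median over 9 genes of 0.03, and higher on day 139 than on day 0 in 6 of 9, with a median of 0.61. None passed both limits. Cd247, the zeta chain of the T cell receptor that also serves Ncr1, came nearest, at 32.3, 34.2 and 97.8 (log2 ratio 1.60 for Sample 3 over Sample 1, Z-score 1.95). Hcst, which encodes the adaptor DAP10 of NKG2D, gave 4932, 4677 and 6039 (named after its values were seen). The 3 adaptors lower on day 139 than on day 0 were Fcer1g (-0.26), Tyrobp (-0.19) and Vav1 (-0.04), also named after their values were seen. Under spike-in scaling all 9 were higher in that comparison. The 4 detected ligands of NKG2D, of 9 listed, all read lower on day 139 than on day 2, with a median of -0.76, although 1 of them (H60b) was not well above background in Sample 3. Raet1e was the one that moved most, at 47.4 and 45.5 on days 0 and 139 and 2.05 times the day 0 signal on day 2. The 4 ran higher on day 2 than on day 0, with a median of 0.57, but H60b, at 0.03, changed sign under 75th percentile and spike-in scaling. None passed both limits.

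**Figure D4:**
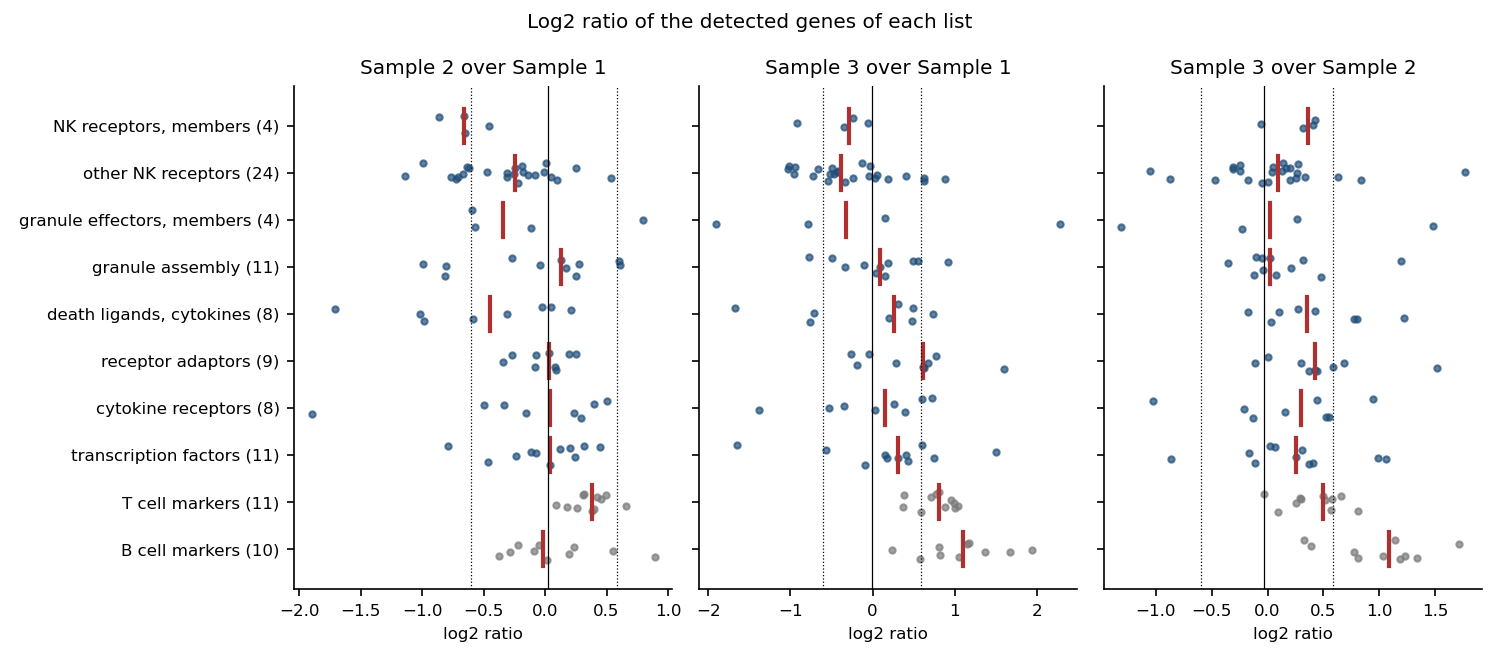
Log2 ratios of the detected genes of selected gene lists (points) with the list median (line), in the 3 comparisons, beside the member receptors and member granule effectors. The T cell markers lie above 0 in all 11 genes for Sample 2 and for Sample 3 against Sample 1, while most other NK receptors lie below 0.

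Eomes works with other transcription factors that passed limits in opposite directions. Nfil3, which is needed for NK cell development and is also induced in many other cells, gave 806, 467 and 256, a log2 ratio of -1.65 for Sample 3 over Sample 1. Tox, needed for NK cells and for T cells, gave 135, 184 and 383, a ratio of 2.83 over the same samples. Both passed both limits, and the median of the 11 detected factors was 0.04 on day 2 and 0.31 on day 139 against day 0. Tbx21, the T-box relative of Eomes, gave 818, 888 and 1103 (named after its values were seen).

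The receptors for cytokines that drive NK cells had medians of 0.04, 0.15 and 0.30 over 8 genes in the 3 comparisons. Il18rap, the accessory chain of the interleukin-18 receptor, gave 87.5, 23.5 and 33.7, past both limits downward on day 2 (log2 ratio -1.90). Of 6 cytokines 4 were detected, and Il18 gave 2430.0, 1557 and 1335. Il21 was not well above background in Samples 1 and 2 and gave 137 in Sample 3, at least 10.6-fold higher than in Sample 1 and at least 9.75-fold higher than in Sample 2. Each bound takes the lowest well-above-background signal of the dimmer array, or the signal of the probe itself where higher. Of 8 genes of NK cell traffic and maturation, 6 were higher on day 139 than on day 0 with a median of 0.93. Cx3cr1, a chemokine receptor of mature NK cells that monocytes also carry, gave 1024, 2440.2 and 2933, past both limits upward on day 2 (1.25) and on day 139 (1.52).

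Granule genes are shared with T cells, so the markers of other cells are given beside them. All 11 T cell markers were higher on day 2 (median 0.38) and on day 139 (median 0.81) than on day 0, and 9 of the 11 passed the ratio limit on day 139. Their summed signal was 11352, 14661 and 20363, and Cd5 moved most, by 1.04 on the log2 scale on day 139. The medians of the 4 member receptors lay below that of the T cell markers by 1.04 on the log2 scale on day 2 and by 1.10 on day 139, and those of the 24 other NK receptors by 0.63 and 1.18. These gaps do not depend on a factor common to an array, but they narrowed with another background correction. Under normexp the day 2 medians were -0.42 for the member receptors, -0.20 for the other NK receptors and 0.35 for the T cell markers. On day 139 they were -0.18, -0.16 and 0.74. The part of T cells in the granule signals was not tested.

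Markers of other cells that carry some of the same genes were mixed. Of 6 markers of NKT and innate-like T cells, 3 were detected, and Zbtb16, the factor that defines NKT cells, gave 542.5, 89.0 and 88.7, a log2 ratio of -2.61 in both later samples against Sample 1 and past both limits. Il17re gave 21.2 in Sample 2 and 79.9 in Sample 3 and was past both limits there. Of 7 detected basophil and mast cell markers, cells that make granule proteases of their own, Cpa3 gave 64.7, 204 and 39.8 and Mcpt8 gave 27.1, 39.9 and 103. The 10 B cell markers were level on day 2 (median -0.02) and higher on day 139 (1.10), with a summed signal of 50464, 49914 and 95224. The 6 plasma cell markers had medians of 0.12 and 1.53 and a summed signal of 27853, 17508 and 34572. Xbp1, the brightest of the 6, went the other way at 24082.5, 12675 and 20686. It was past both limits downward on day 2 (-0.93) and lower on day 139 by 0.22 on the log2 scale. Erythroid (0.00 and -0.53), megakaryocyte (0.01 and -0.66), macrophage (-0.22 and -0.33), neutrophil (-0.27 and 0.07) and plasmacytoid dendritic cell markers (0.11 and 0.37) gave medians over their detected genes for Samples 2 and 3 against Sample 1. The neutrophil medians stand beside the 4 markers named above, which were far lower in both later samples. Leading genes were Blk (1.94), Fcer2a (1.67) and Cd79a (1.37) of B cells and Tnfrsf17 (2.78), Mzb1 (2.04) and Sdc1 (1.79) of plasma cells, all past both limits upward for Sample 3 over Sample 1. Past both limits downward were Marco (-1.28) and Rhag (-1.14) in that comparison, and Spic (-1.72) for Sample 2 over Sample 1. For Sample 3 over Sample 2, Gata1 (-1.21) and Pf4 (-1.08) were past both limits downward, and Spic upward (1.30). Pacsin1 of plasmacytoid dendritic cells reached 0.71 for Sample 3 over Sample 1 and passed the ratio limit only. The highest erythroid signal was 427413 on all 3 arrays, since quantile normalization gives equal ranks equal signals. The erythroid day 2 median was 0.15 under 75th percentile scaling and 0.09 under spike-in scaling. For Sample 3 over Sample 1, spike-in scaling gave medians of -0.12 (erythroid), -0.28 (megakaryocyte), 0.05 (macrophage), 0.46 (neutrophil) and 0.73 (plasmacytoid dendritic cell). The part of these cells in the member signals was not tested.

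Genes near to the median course of the 10 members were Rgs18, Magef1, Gm2590 and Crkl, by Euclidean distance over the 2 log2 ratios against Sample 1 among 15043 genes. Rgs18 was nearest, with a distance of 0.007 and signals of 554, 389.6 and 499.6. The distance of the members to their own median had a median of 0.73, a distance within which 56.3% of the 15043 genes lay. Over 3 samples the distance sorts genes by 2 numbers only.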

How the data were processed

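Total spleen RNA was labelled with Cy3 and hybridised to an Agilent SurePrint G3 Mouse 8x60K array, 1 array per sample. The authors deposited the scanner output, with a linear intensity per spot that had not been normalized across arrays and had its background subtracted by Agilent Feature Extraction (version 9.5.1.1 per the submitters' processing notes, a later one in the file headers). A deposited table of processed intensities was quantile normalized. Member values in it differed from those used here by at most 0.0007 on the log2 scale. Labels and methods name different purification and labelling kits.

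Spots that were controls or carried outlier flags were dropped, spots of 1 probe averaged, the 55679 probes quantile normalized, floored at 1 and taken to log2. A probe well above background on at least 1 array counted as detected (32108 probes, 22851 genes). Shares of genes past a limit are over the detected genes. With 1 array per sample nothing bears on biological spread, and the arrays' number limits the precision. Errors are the scanner software's errors carried to the log2 ratio. The code was tested on simulated data.

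The members, the gene lists and the tests were chosen with earlier results of these data known. The rule for named genes took all 10 members, per list up to 3 genes past both limits or else the one with the largest change, and the 5 genes of most similar course, of which 1 is not reported here. Outside the rule, Cd160, Fasl, Fcer1g, H60b, Hcst, Ifng, Il21, Klra17, S100a9, Tbx21, Tyrobp, Vav1 and Xbp1 were named after their values were seen. Alternatives were 75th percentile, spike-in and normexp scaling, the deposited values, other floors, filters, limits and Z-scores, and other probe choices. Lists were written by hand from general knowledge. Tools were R 4.3.3 (limma 3.58.1) and Python 3.11.15 (pandas 2.3.3, numpy 2.4.6). Promoters are from RefSeq.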

Additional observations from a re-analysis of the deposited data

How the results depend on the processing

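The member results were recomputed with 1 choice changed at a time, and the gene lists under the 3 other scalings only. Of the 10-gene medians and counts, 84 alternative values stayed and 21 moved. Of single genes 258 stayed, 41 moved and 1 past the ratio limit changed sign. That 1 was Gzmk for Sample 3 over Sample 2 read at its second probe (-0.33, an alternative chosen after seeing the data). Genes short of that limit that changed sign with the scaling count among the others. A median or ratio stayed if it shifted by less than the scanner error. A count stayed if its total was equal or nearly so, whichever way its genes went. The floor and the detection filters could not change a member's ratio, because all member probes were well above background on all arrays. Other probe choices could not change genes with 1 probe. The number that stayed therefore does not measure robustness. Members past both limits for Sample 2 over Sample 1 went from 0 to 1 (Klrb1c) with 250 probes in the Z-score window and to 2 when the SD was replaced by the median absolute deviation. For Sample 3 over Sample 1 they went from 2 to 4 with the median absolute deviation and to 1 with the mean of probes or the dimmer probe. For Sample 3 over Sample 2 they went from 1 to 2, Gzmb added, under 75th percentile scaling, a floor at the background limit, probes detected on all arrays, the window of 250 and the median absolute deviation, and to 0 with 1 SD over all probes, the mean of probes or the dimmer probe. Members past the ratio limit for Sample 2 over Sample 1 went from 4 to 1 under normexp, 0 at limits of 2 and 0.5, and 2 with the dimmer probe. For Sample 3 over Sample 1 they went from 4 to 2 at the stricter limits, and spike-in scaling kept 4 but turned 1 higher and 3 lower into 3 higher and 1 lower. For Sample 3 over Sample 2 they went from 2 to 7 under spike-in scaling and to 1 with the mean of probes. Spike-in scaling moved the median of the members to 0.21 for Sample 3 over Sample 1 and to 0.65 for Sample 3 over Sample 2. Over all detected probes it moved the calls past both limits for Sample 3 over Sample 1 from 808 higher and 709 lower to 1475 and 390, and for Sample 3 over Sample 2 from 767 and 569 to 1565 and 281. The cause of these moves was not tested. No paired analysis was possible because each sample was 1 array. Dim members such as Klrk1 lie nearest to background, where the scanner error is widest.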
